A study of Carassius gibelio with 26 samples.

Results

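The mitochondrial genome carries the genes of the 3 core subunits of cytochrome c oxidase, COX1, COX2 and COX3, and of 2 subunits of the ATP synthase, ATP6 and ATP8. These 5 genes were picked by their table IDs and by their position on the mitochondrial sequence, and they are 5 of the 13 mitochondrial protein genes and 5 of the 62131 rows of the count table. They were followed across testis RNA of 26 males of gibel carp (Carassius gibelio), a fish in which diploids reproduce sexually while triploid females reproduce by gynogenesis, their eggs being activated by sperm that adds no genes. The parents came from the Dyje River in the Czech Republic, and the males were raised in aquaria to an age of 2 years. The study set males of sexual crosses beside triploid males that had developed in gynogenetic broods, to look for genes linked to reproduction and to sex determination.

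Sexual crosses at 22 °C gave the diploid males (2n, n = 10). The triploid males of group 1 (n = 5) came from 28 to 31 °C and from a mother without sex-reversed offspring at 22 °C. Group 2 (n = 5) came from 28 to 31 °C and group 3 (n = 6) from 22 °C, and for both the mother also gave many sex-reversed offspring at 22 °C. Eggs of the triploid broods were activated with sperm of gibel carp, common carp or bream, and which sperm gave which male was not known here. The library names hold a second number of unstated meaning, which took the values 14, 106 and 108 among diploid males, 4 to 6 in group 1, and 11 or 12 in groups 2 and 3 (only 11 in group 2). Ploidy and type of cross were the same difference in these groups, so they cannot be told apart, and males of a group may share a mother. Groups 1 and 2 also differed from the diploid males in temperature. Among the triploid groups, only group 3 had the 22 °C of the diploid males.

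Cytochrome c oxidase, complex IV, is the last enzyme of the respiratory chain: it passes electrons from cytochrome c to oxygen and pumps protons across the inner membrane. The ATP synthase, complex V, lets those protons back and uses their flow to make ATP. In vertebrates the core of complex IV and part of the membrane sector of complex V are made inside the mitochondrion from long transcripts that are cut into single messengers, except that ATP8 and ATP6 overlap and share a messenger. Sperm and developing germ cells rely on mitochondria for part of their energy, and testis cell types differ in how many they hold.

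The table gave IDs and no gene names. The 13 protein genes stood in the same order as in the RefSeq gene table of gibel carp (assembly carGib1.2-hapl.c), 10 of 13 had the same length, and the largest difference was 2 bases. COX1 (ENSCARG00000000017, 1551 bases), COX2 (ENSCARG00000000020, 691 bases), ATP8 (ENSCARG00000000022, 165 bases) and ATP6 (ENSCARG00000000023, 684 bases) matched in length, and COX3 (ENSCARG00000000024) had 786 bases where RefSeq has 785. In the goldfish annotation used for counting (ASM336829v1), all 5 lay on the plus strand of the mitochondrial sequence, in the order COX1, COX2, ATP8, ATP6 and COX3. COX1 and COX2 were 158 bases apart and COX2 and ATP8 77 bases. ATP8 and ATP6 shared 7 bases, and ATP6 and COX3 shared 1 base. Testis marker genes were not examined, since 0 of the 62131 IDs were found in the gene table.

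Library totals ran from 15375923 to 29503544 counts, with a median of 23345898. Per library, COX1 held 43224 to 96027 counts, COX2 15213 to 36398, COX3 17093 to 49860, ATP6 7415 to 18725 and ATP8 40 to 131. Levels are given as CPM, counts brought to a common library size, with each library total scaled by the TMM factor of edgeR, and are called normalised CPM. The TMM factor corrects totals for a few genes that take up many reads. It ran from 0.950 to 1.20 in diploid males, from 1.04 to 1.51 in group 1, from 0.861 to 0.910 in group 2 and from 0.777 to 0.975 in group 3. The 2 highest factors were 1.51 and 1.45, in group 1 replicates 1 and 2.

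By mean CPM of the library total over 26 males, COX1 ranked 1 of 62131 rows in these testes, with 3275 CPM. COX3 ranked 11 with 1500.1 CPM, COX2 21 with 1111 CPM, ATP6 108 with 514 CPM and ATP8 25911 with 3.23 CPM. For a comparison between genes, counts were divided by gene length. On normalised CPM per kb, the median over the 26 males was 2229 for COX1, 1869 for COX3, 1631 for COX2 and 751 for ATP6, followed by 693 for cytochrome b (CYTB, complex III) and 372 for ND1 (complex I). ATP8 stood at 18.7 and the lowest protein gene, ND6, at 6.94. COX1 was above COX2, COX2 above ATP6, and CYTB above ND1 in 26 of 26 males. Neighbours in this order were less apart: COX1 was above COX3 in 22 of 26 males (7 of 10 diploid, 15 of 16 triploid), COX3 above COX2 in 25 of 26, and ATP6 above CYTB in 19 of 26.

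The low value of ATP8 has a limit in how reads were counted. Per the file headers, reads that overlap 2 genes were not assigned, and the labels give reads of 150 bases. ATP8 has 158 bases that it does not share with ATP6, which leaves 9 positions at which a whole 150-base read lies inside them, against 1402 for COX1, 542 for COX2, 635 for COX3 and 527 for ATP6. The rank and the per-kb value of ATP8 are therefore not read as its place among the genes, and its level was compared between males. The other genes carry a smaller form of this limit, and not to the same degree. COX1 has 1402 such positions for 1551 bases, COX3 635 for 786 and COX2 542 for 691. These positions leave out reads that hang over the end of a gene. Counting was by strand, so such reads are kept where they touch no other gene on their strand. The rows adjoining COX1 on both sides lie on the minus strand. Division by length does not correct for these limits, so the close per-kb order of COX1 over COX3 is not read as a difference in their levels.

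**Figure D1:**
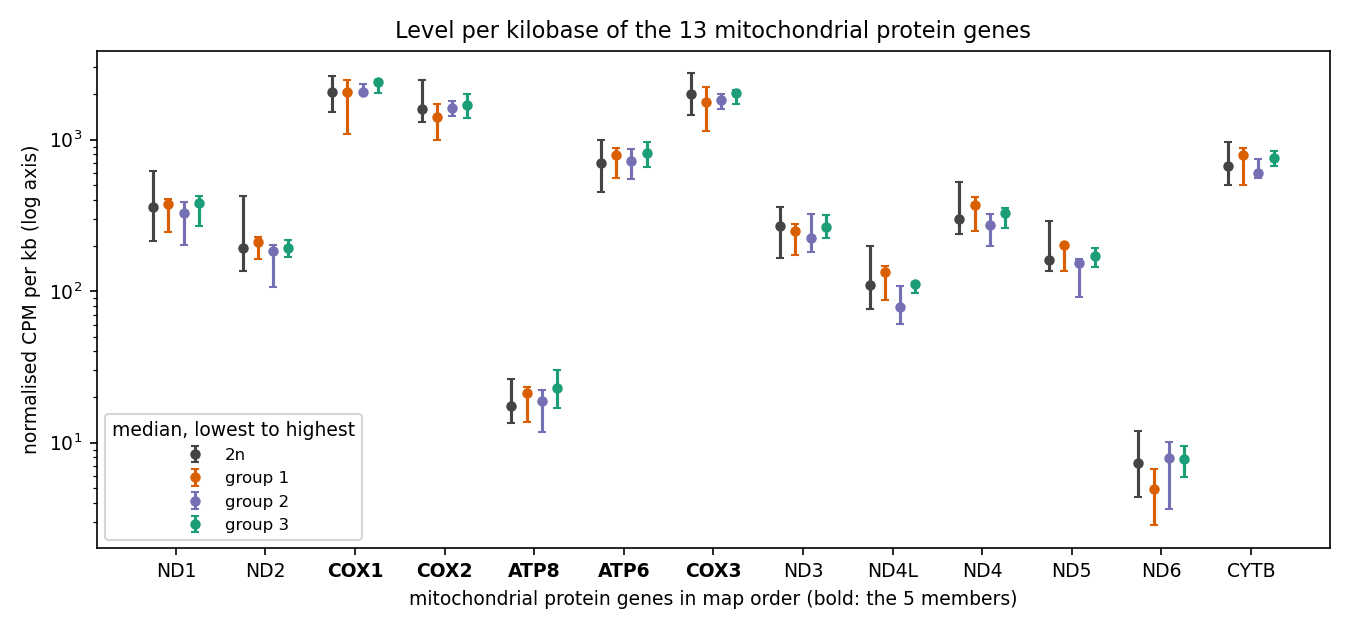
Normalised CPM per kb (log axis) of the 13 mitochondrial protein genes in their order on the mitochondrial genome, with a point for the median of each group and a bar from its lowest to its highest male. COX1, COX2 and COX3 stand highest (medians over 26 males of 2229, 1631 and 1869), ATP6 follows at 751, and of the 13 genes ND6 (6.94) alone lies below ATP8 (18.7), whose value carries the counting limit of its length.

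COX1 is the catalytic subunit of complex IV and holds the haem and copper centre at which oxygen is reduced. Its normalised CPM in diploid males had a lowest value of 2351, a median of 3222 and a highest of 4079 (mean 3253 ± 636, SD, n = 10). Group 1 males had 1701, 2446, 3845, 3214 and 3635 (2968 ± 888, SD, n = 5), and group 2 males 3173, 3209, 3174, 3640.0 and 3537 (3347 ± 224, SD, n = 5). Group 3 males had a lowest value of 3158, a median of 3717 and a highest of 3839 (3642 ± 256, SD, n = 6). All ranges overlapped, and the lowest male of the study was group 1 replicate 1. That male also had the highest TMM factor, 1.51, by which its levels were divided. The log2 difference between all triploid and diploid males was 0.03 (95% interval -0.24 to 0.30), with an adjusted p of 0.88 in the quasi-likelihood test of edgeR.

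COX2 holds a copper centre that takes electrons from cytochrome c. Its normalised CPM ranged from 902 to 1710.2 in diploid males, with a median of 1109 (1155 ± 245, SD, n = 10). Group 1 males had 686, 866, 1198, 982 and 1138 (974 ± 207, SD, n = 5), and group 2 males 984, 1032, 1117, 1237 and 1136 (1101 ± 98.0, SD, n = 5). Group 3 males ranged from 960.1 to 1388 with a median of 1164 (1172 ± 156, SD, n = 6). The highest male was diploid replicate 5 and the lowest again group 1 replicate 1, and the groups overlapped. On library totals that male had 1038 CPM, and the lowest was group 2 replicate 1 with 847. The log2 difference of triploid from diploid males was -0.09 (95% interval -0.33 to 0.15; edgeR adjusted p = 0.60).

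COX3 belongs to the core of complex IV and carries no metal centre. In diploid males its normalised CPM ranged from 1143 to 2155 with a median of 1586 (1576 ± 319, SD, n = 10). Group 1 males had 896, 1218, 1757, 1385 and 1553 (1362 ± 328, SD, n = 5), and group 2 males 1395, 1430.3, 1255, 1574 and 1487 (1428 ± 118, SD, n = 5). Group 3 males ranged from 1349 to 1679.7 with a median of 1608 (1556 ± 128, SD, n = 6). Groups 2 and 3 lay inside the diploid range, while group 1 replicate 1 lay below it. On library totals that male had 1356 CPM, and the lowest was group 2 replicate 3 with 1103. The log2 difference of triploid from diploid males was -0.12 (95% interval -0.36 to 0.12; edgeR adjusted p = 0.48).

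ATP6 forms part of the path by which protons cross the membrane sector of the ATP synthase. Its normalised CPM in diploid males ranged from 311 to 676 with a median of 479 (495 ± 108, SD, n = 10). Group 1 males had 382, 515, 599.7, 565 and 539 (520.3 ± 83.4, SD, n = 5), and group 2 males 406, 375, 545, 591 and 499 (483 ± 91.4, SD, n = 5). Group 3 males ranged from 449 to 657 with a median of 558 (555 ± 71.4, SD, n = 6). Every triploid male lay inside the diploid range, group 1 replicate 1 included. The log2 difference of triploid from diploid males was 0.07 (95% interval -0.17 to 0.31; edgeR adjusted p = 0.70).

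ATP8 is a small subunit of the same membrane sector. Its normalised CPM in diploid males ranged from 2.22 to 4.37 with a median of 2.88 (2.98 ± 0.622, SD, n = 10). Group 1 males had 2.27, 3.83, 3.50, 3.71 and 3.22 (3.30 ± 0.620, SD, n = 5), and group 2 males 2.21, 1.94, 3.67, 3.09 and 3.33 (2.85 ± 0.740, SD, n = 5). Group 3 males ranged from 2.79 to 4.98 with a median of 3.78 (3.85 ± 1.01, SD, n = 6). The 2 lowest values of group 2 and the highest of group 3 marked the ends, and the groups overlapped. The log2 difference of triploid from diploid males was 0.17 (95% interval -0.13 to 0.47; edgeR adjusted p = 0.42). The count of ATP8 was 0.518% to 0.833% of that of ATP6, its partner on the shared messenger, over the 26 males.

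**Figure D2:**
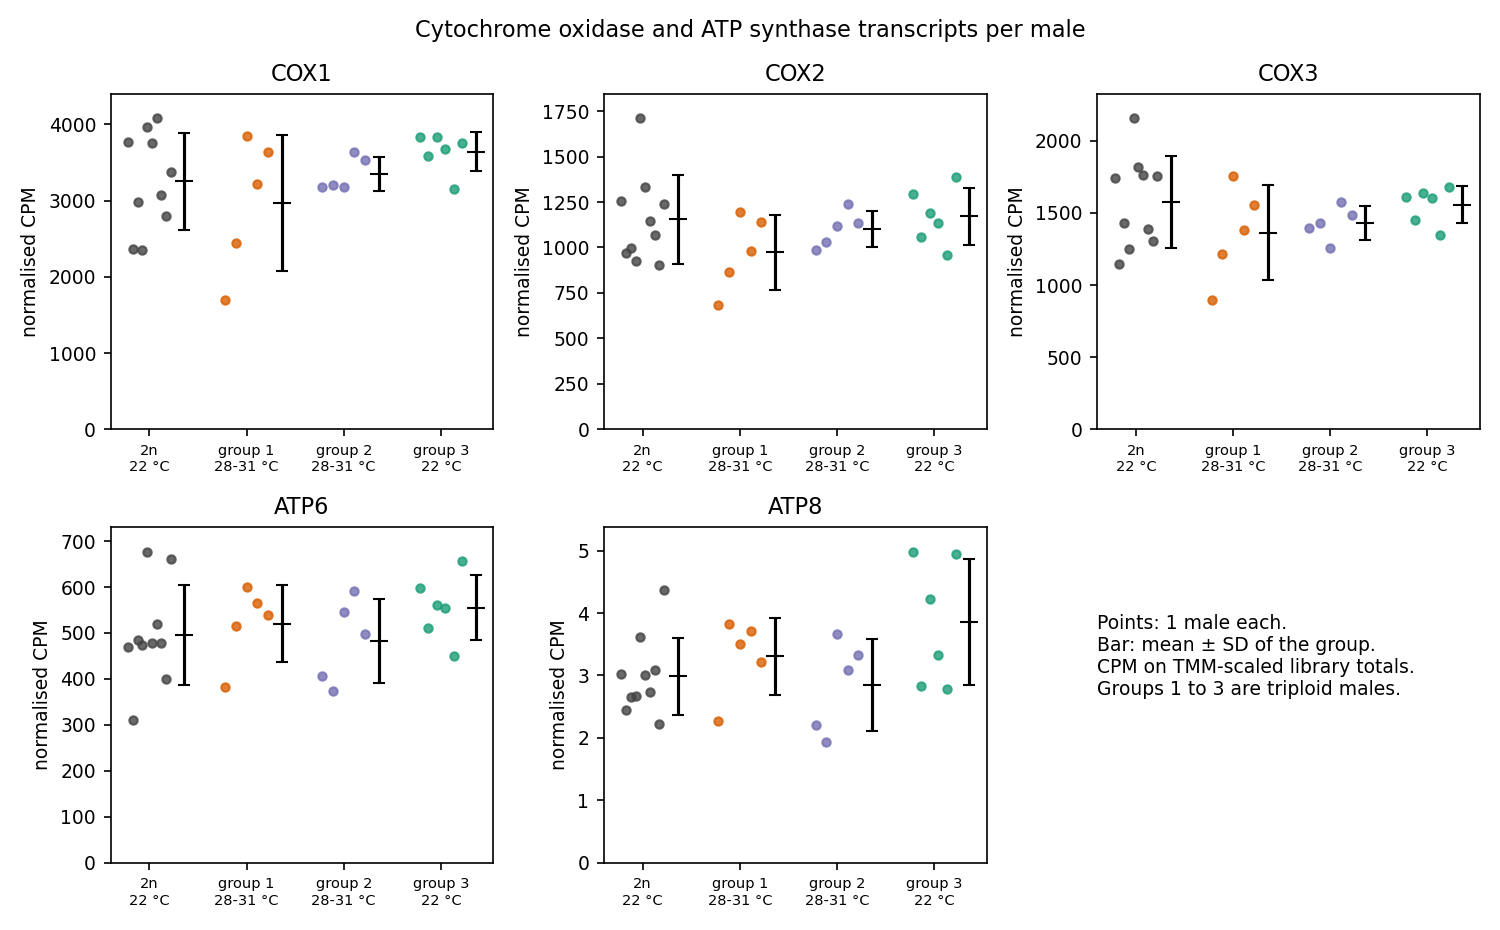
Normalised CPM of COX1, COX2, COX3, ATP6 and ATP8 by group, in panels whose axes start at 0 and differ in range, with a point for each male and a bar for the group mean ± SD. In each panel the 4 groups overlap, and group 1 replicate 1, whose total was scaled up by 1.51, is the lowest point of COX1 (1701), COX2 (686) and COX3 (896).

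Of the 5 genes, 0 passed an adjusted p of 0.05 between triploid and diploid males in the edgeR test, where 25.5% of the 39578 genes tested did. Their median log2 difference was 0.03, against -0.02 over all genes. Unadjusted p was under 0.05 for 0 of 5, and DESeq2 and limma-voom also called 0. The intervals limit what the study could have missed with TMM factors. The widest, that of ATP8, ended at a fold of 0.912 and 1.38, and that of COX1 at 0.848 and 1.23. The lowest ends were those of COX3 (0.780 to 1.09) and COX2 (0.797 to 1.11). On library totals the fold was 0.847 for COX3 (95% interval 0.741 to 0.969, edgeR adjusted p = 0.067). For COX2 it was 0.859 (95% interval 0.753 to 0.979, edgeR adjusted p = 0.087). The median log2 difference over all genes on library totals was -0.13, beside -0.24 for COX3 and -0.22 for COX2. The intervals of COX1, ATP6 and ATP8 on that scale included no change. A p that misses the threshold does not show that the levels were equal.

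In the separate groups, 0 of 5 passed in each of the other 6 comparisons. The share of all 42352 genes tested that passed was 34.0% for group 1 against diploid males, 35.2% for group 2 and 44.4% for group 3. It was 47.9% for group 1 against group 2, 56.5% for group 1 against group 3, and 0.0% for group 2 against group 3, where 0 genes passed in edgeR and 1073 had an unadjusted p under 0.05. DESeq2 and limma-voom called 1 gene each in that last comparison and, as edgeR did, 0 of the 5 members in all 7 comparisons. At an unadjusted p under 0.05, edgeR gave 1 member, ATP8, in group 3 against diploid males and in group 2 against group 3, and 0 in the other comparisons.

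Against diploid males, the log2 differences of group 1 were -0.13 for COX1, -0.25 for COX2, -0.21 for COX3, 0.07 for ATP6 and 0.14 for ATP8. Those of group 2 were 0.04, -0.07, -0.14, -0.04 and -0.08 in the same order, and those of group 3 were 0.16, 0.02, -0.02, 0.16 and 0.37. These 3 comparisons share the diploid males. The median over the 5 genes was -0.13 in group 1, -0.07 in group 2 and 0.16 in group 3, beside -0.05, -0.11 and -0.10 over all genes. The edgeR adjusted p nearest the threshold was that of ATP8 in group 3, with a log2 difference of 0.37 ± 0.17 (SE; 95% interval 0.01 to 0.72) and an adjusted p of 0.084. This value passed without diploid replicate 10, the diploid male highest in ATP8 (0.43, adjusted p = 0.038), and without group 3 replicate 5, the lowest of its group (0.45, adjusted p = 0.046). Over all males left out in turn the value ran from 0.28 to 0.45, and on library totals it was 0.07 (edgeR adjusted p = 0.75). ATP8 rested on 40 to 131 counts per library.

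Group 1 against group 2 bears on the mother at the same labelled range of temperatures, although the third number of the library names, 31 in all males of group 2, was 31 in 3 and 28 in 2 males of group 1, and group 2 against group 3 on the temperature with a mother of the same kind. Group 1 differed from group 2 by log2 values of -0.17 for COX1, -0.18 for COX2, -0.07 for COX3, 0.11 for ATP6 and 0.22 for ATP8. Group 2 differed from group 3 by -0.12, -0.09, -0.12, -0.20 and -0.45 in the same order. For ATP8 the latter was -0.45 ± 0.21 (SE; 95% interval -0.87 to -0.02; edgeR adjusted p = 1). Group 1 differed from group 3 by -0.30, -0.27, -0.19, -0.09 and -0.23, and the lowest edgeR adjusted p of these, that of COX2, was 0.17.

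**Figure D3:**
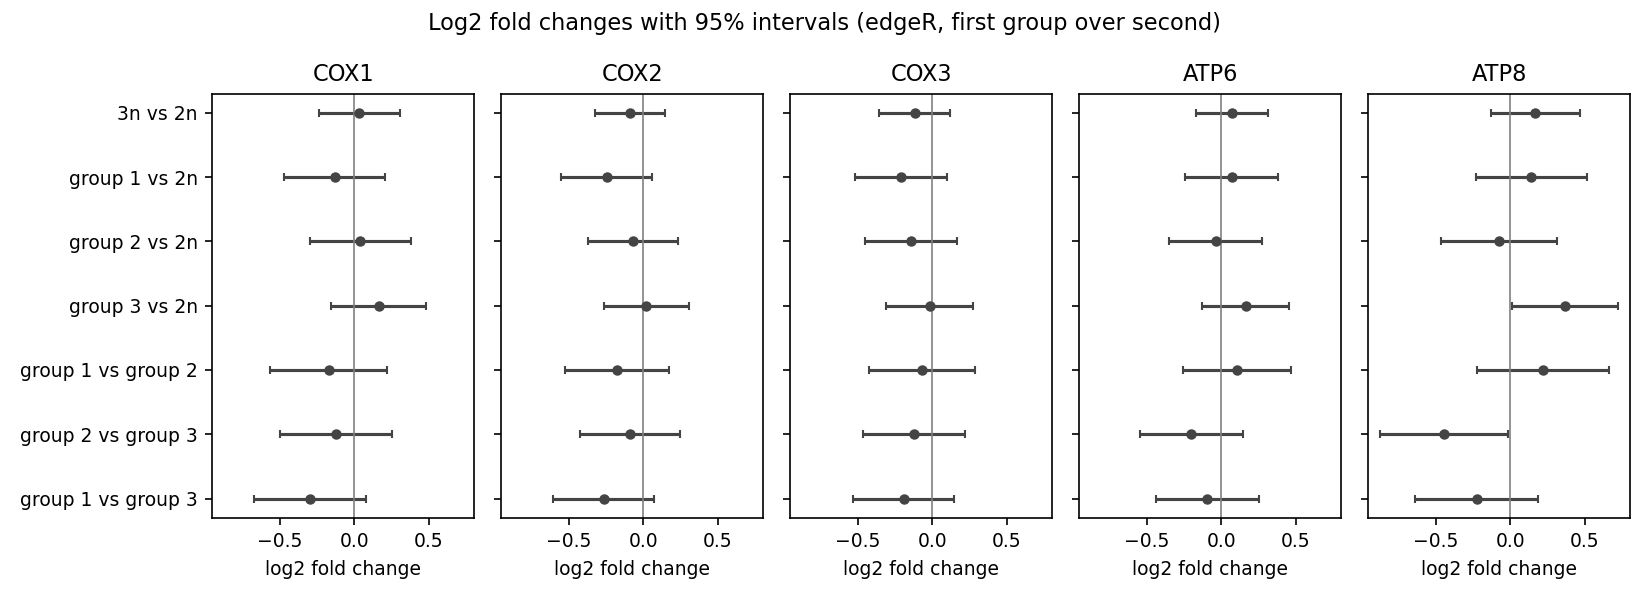
Log2 fold change of each of the 5 genes in the 7 comparisons (first group over second), with points for the edgeR estimate and bars for the 95% interval. Bars that do not cross 0 are those of ATP8 in group 3 against diploid males (0.01 to 0.72) and in group 2 against group 3 (-0.87 to -0.02).

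Several of these values changed with the scale. On CPM of the library total, with no TMM factor, COX1 ran from 2652 to 4219 in diploid males, from 2576 to 4078 in group 1, from 2733 to 3219 in group 2 and from 2982 to 3459 in group 3. On this scale ATP6 ran from 559.6 to 745 in group 1 and from 325 to 519 in group 2. ATP8 ran from 3.34 to 5.53 in group 1 and from 1.69 to 3.23 in group 2. How many of all genes had ranges apart in this way was not counted. The edgeR test on library totals called both: ATP6 was higher in group 1 by 0.55 ± 0.15 (SE, adjusted p = 0.0037) and ATP8 by 0.68 ± 0.22 (SE, adjusted p = 0.011). It also called COX3 in that comparison, higher by 0.36 ± 0.13 (SE, adjusted p = 0.016), where the TMM value was -0.07. On this scale 60.8% of all genes passed and the median over all genes was 0.58, so that all 5 members but ATP8 differed by less than the median gene.

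The same change of scale called COX2 and COX3 lower than in diploid males in groups 2 and 3. For group 2 the log2 differences were -0.33 ± 0.12 for COX2 (SE, edgeR adjusted p = 0.023) and -0.40 ± 0.11 for COX3 (SE, edgeR adjusted p = 0.0054). For group 3 they were -0.26 ± 0.11 (SE, edgeR adjusted p = 0.044) and -0.30 ± 0.10 (SE, edgeR adjusted p = 0.019). On library totals 46.9% of all genes passed for group 2 and 52.4% for group 3, and the median over all genes was -0.38 and -0.39. ATP6 was called in group 1 against group 3, higher by 0.38 ± 0.15 (SE, edgeR adjusted p = 0.027), where 63.3% of all genes passed and the median over all genes was 0.59.

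**Figure D4:**
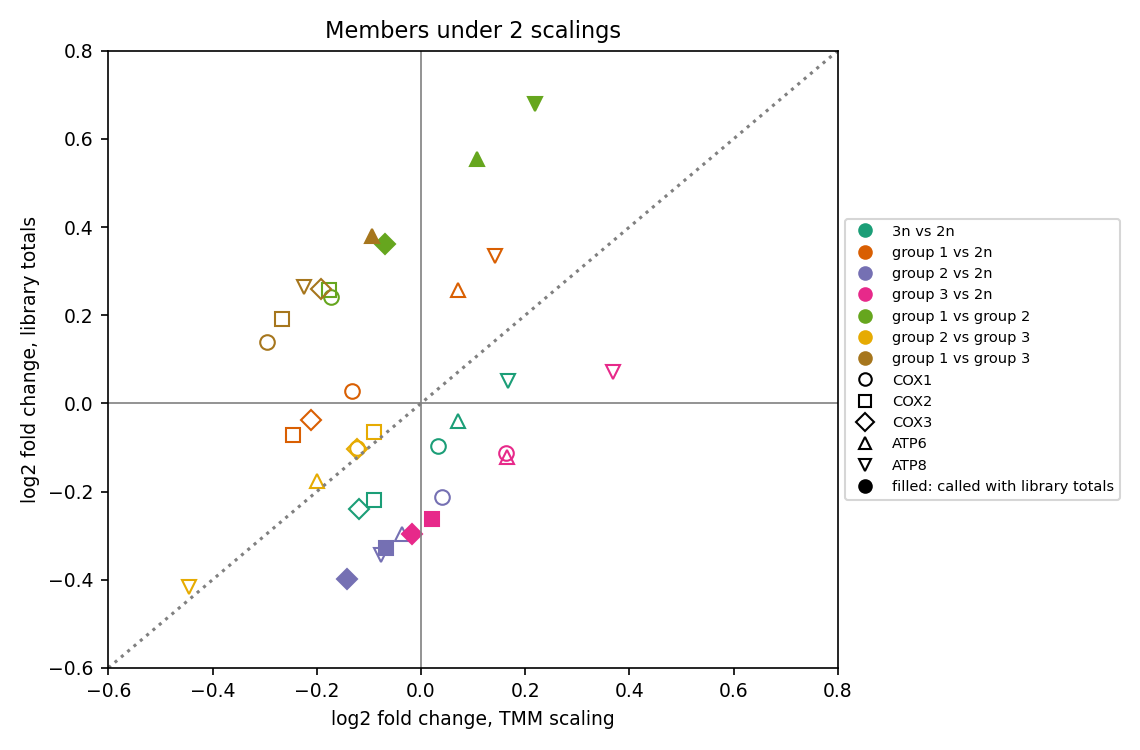
Log2 fold change of the 5 genes with TMM factors (horizontal axis) and with library totals alone (vertical axis), a symbol for each gene and a colour for each comparison, filled where the test on library totals called it, with a dotted line where both are equal. Comparisons of group 1 with groups 2 and 3 lie above the line (ATP8 of group 1 against group 2 at 0.22 and 0.68), and groups 2 and 3 against diploid males lie under it (COX3 of group 2 at -0.14 and -0.40).

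Shares of the counts of the 13 protein genes do not depend on the scale. The 5 genes together made up 66.1% to 78.0% of these counts in diploid males, with a median of 74.2% (73.9% ± 3.80, SD, n = 10). In group 1 they made up 68.8%, 67.7%, 73.4%, 70.7% and 72.7%, and in group 2 78.9%, 80.3%, 74.9%, 75.6% and 75.4%. In group 3 the share ran from 73.9% to 75.9% with a median of 75.1%. Every male of group 1 lay below every male of groups 2 and 3, while the diploid range covered all of group 1 and all of group 3. Of the 5 genes taken singly, the share of 1 was apart between groups 1 and 2, and of 0 between groups 1 and 3. In the edgeR test of levels, 47.9% of all genes passed for group 1 against group 2 and 56.5% against group 3. How many of all genes had ranges apart was not counted. These shares were looked at after the levels and are given with no test.

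COX1, the largest of these shares, held most of that difference in percentage points. Its share was 31.9% to 38.5% in group 1 and 39.0% to 42.6% in group 2, without overlap, 37.7% to 40.2% in group 3 and 31.7% to 42.4% in diploid males. A share depends on the other genes too. The level of COX1 in group 1 against group 2 differed by a log2 value of -0.17 with TMM factors and 0.24 on library totals, called on neither scale. COX2 held 11.3% to 12.9% in group 1, 12.9% to 13.7% in group 2 and 11.8% to 13.9% in group 3. COX3 held 15.9% to 17.4%, 15.4% to 19.0% and 16.2% to 17.5% in the same order. ATP6 went the other way in its means, with 6.45% in group 1, 5.81% in group 2 and 5.99% in group 3, and its ranges overlapped. Of the genes outside the 5, CYTB held 9.97% to 10.7% in group 1, above the 8.44% to 9.61% of group 2 and the 9.09% to 9.73% of group 3. The diploid range of CYTB covered groups 2 and 3 and reached into that of group 1. In the edgeR test with TMM factors, 3 of the 7 complex I genes (ND4, ND4L and ND5) were higher in group 1 than in group 2, by log2 values of 0.44, 0.60 and 0.51, a share near the 47.9% of all genes that passed there. ND6 had -0.58 and did not pass, and DESeq2 called 2 of the 7.

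Ratios of counts per kb by pairs went much the same way, though not all kept group 1 apart. COX1 to ND5 was 7.73 to 12.1 in group 1, 12.5 to 22.7 in group 2 and 12.0 to 15.2 in group 3. Diploid males had 7.48 to 19.2, and groups 1 and 3 overlapped. COX1 stood at 4.30 to 6.24 times ND4 in group 1, 7.30 to 10.4 times in group 2 and 6.94 to 7.94 times in group 3, with 4.11 to 8.69 in diploid males. ATP6 stood at 2.05 to 2.25 times ND4 in group 1, 2.48 to 2.92 in group 2 and 2.34 to 2.80 in group 3, so that each male of group 1 lay below those of groups 2 and 3. Diploid males had 1.82 to 2.50. How many pairs of genes kept the groups apart in this way was not counted. COX1 to CYTB was 2.20 to 2.81 in group 1, 3.06 to 3.66 in group 2 and 2.87 to 3.24 in group 3, with 2.25 to 4.10 in diploid males. Within complex IV the ratio moved less: COX1 to COX3 was 0.962 to 1.19 in group 1, 1.14 to 1.28 in group 2, 1.13 to 1.25 in group 3 and 0.933 to 1.17 in diploid males.

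**Figure D5:**
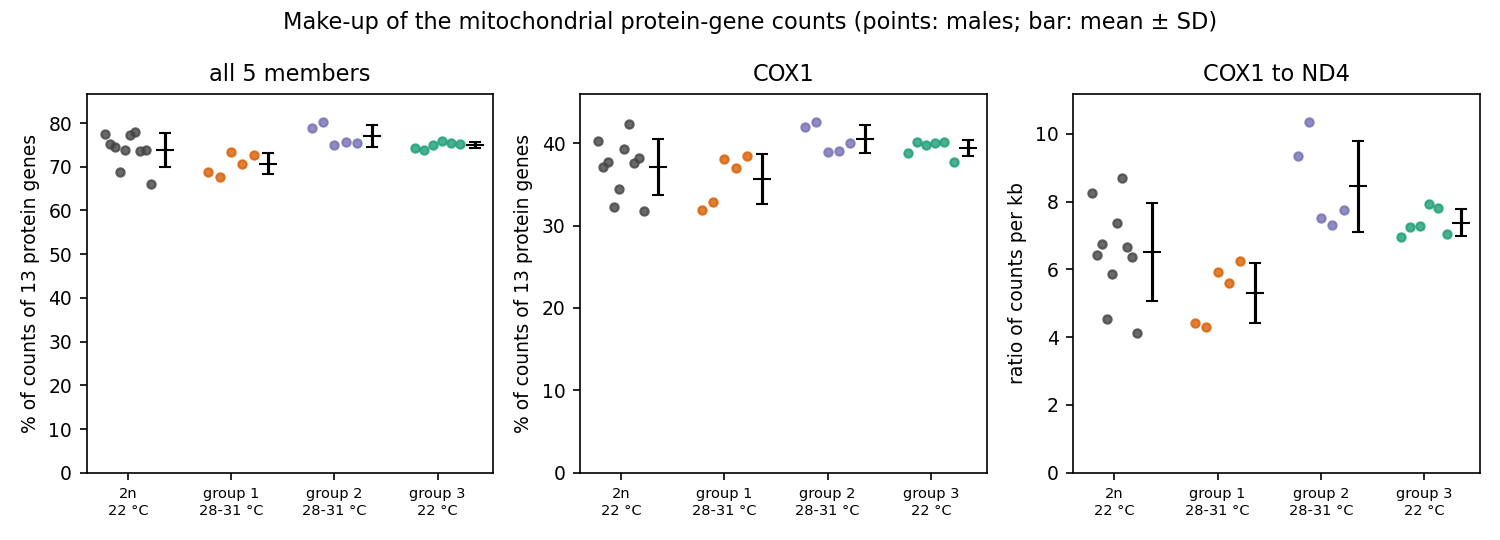
Percent of the counts of the 13 mitochondrial protein genes held by all 5 genes and by COX1, and the ratio of COX1 to ND4 in counts per kb, with a point for each male and a bar for the group mean ± SD. The 5 genes hold 67.7% to 73.4% in group 1, less than in each male of group 2 (74.9% to 80.3%) and group 3 (73.9% to 75.9%).

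Males of a group did not vary alike. The coefficient of variation of COX1 on normalised CPM was 19.5% in diploid males and 29.9% in group 1, against 6.70% in group 2 and 7.04% in group 3. On log2 CPM its SD was 0.293 in diploid males, where the median SD over all genes was 0.467, and 0.486 in group 1, where that median was 0.297. In groups 2 and 3 the SD of COX1 was 0.0954 and 0.106, beside medians of 0.211 and 0.226. Genes of high level gave another picture: 102 genes had a mean log2 CPM at or above that of ATP6. Their median SD was 0.605 for group 1, 0.324 for diploid males, 0.137 for group 2 and 0.164 for group 3. COX1 lay below that median each time, group 1 included. Without TMM factors, on library totals, COX1 had coefficients of 16.2% (group 1), 14.7% (diploid males), 8.14% (group 2) and 5.53% (group 3). For COX1, group 1 still varied most on that scale, though it stood nearer to the diploid males. This did not hold for all 5 genes. On library totals COX2 ran from 988 to 1819 in diploid males and from 1038 to 1270 in group 1. With TMM factors the log2 SD of ATP6 was highest in diploid males (0.321, against 0.253 in group 1) and that of ATP8 in group 2 (0.384). COX2 and COX3 had their highest log2 SD in group 1 (0.3245 and 0.373). The cause of these spreads was not tested. The ratio of COX1 to COX3 had a coefficient of variation of 7.33% in diploid males and 8.99% in group 1, below those of both levels there. Not all ratios varied less than levels: in group 2 COX2 to COX3 had 9.40%, where COX2 had 8.90% and COX3 8.26%. In group 2 that of ATP6 to COX3 was 20.1%, against 18.9% for ATP6, with 0.335 and 0.301 in replicates 1 and 2 and 0.498, 0.432 and 0.385 in the others.

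The library numbers ran along with part of this spread. Diploid males of number 14 (n = 5) had COX1 at 2368 to 4079 normalised CPM and those of number 108 (n = 4) at 2351 to 3377. The share of the 5 genes was 73.9% to 78.0% in the former and 66.1% to 73.8% in the latter, without overlap. It was 74.4% in the male of number 106. The 12S ribosomal RNA was at 28.9 to 53.5 normalised CPM in number 14 and 7.75 to 19.7 in number 108. The male of number 106 had 9.13, near those of number 108, although its share lay with those of number 14. In group 1, replicates 1 and 2 had COX1 at 1701 and 2446 and a share of 68.8% and 67.7%, and the others had 3214 to 3845 and 70.7% to 73.4%. Both carry the number 31 in the library names, but so does replicate 3, which had the highest COX1 (3845) and the highest share (73.4%) of the group. Without these 2 males the COX1 difference of group 1 from diploid males was 0.14 in place of -0.13, and 0 of 5 members were called. The part of the library number in these values was not tested. In bulk tissue, fewer cells of a type and less RNA per cell cannot be told apart, and libraries selected for poly(A) measure tailed messengers.

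Over the 26 males, the sum of the 5 genes on log2 CPM followed COX1 (Pearson r 0.978, Spearman rho 0.972), COX3 (0.964 and 0.943) and COX2 (0.928 and 0.933), which make up most of it. ATP6 followed it at 0.716 and 0.718, and ATP8 at 0.537 and 0.545. Among genes outside the 5, ND3 (0.780 and 0.858) and CYTB (0.740 and 0.664) were the most alike on the mitochondrial genome, and ND2 (0.272 and 0.216) the least. Of 28610 genes searched outside the mitochondrial genome, the 3 most like the sum were ENSCARG00000055486 (r 0.868, Spearman rho 0.755), ENSCARG00000017082 (0.855 and 0.616) and ENSCARG00000047051 (0.839 and 0.734). These values are a description of 26 libraries that share groups and scaling factors, and these IDs carry no name here.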

How the data were processed

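Per the labels' protocols, RNA with an integrity number above 7 was selected for poly(A), made into strand-specific libraries with molecular identifiers and read as pairs of 150 bases. The deposited values are raw read counts per gene, made with featureCounts 2.0.6 per the file headers, over exons, in reverse-stranded mode (setting 2), from proper pairs of 1 to 25000 bases and with no minimum mapping quality (0). Each read of a pair was counted, reads on 2 genes or with several hits were not, and the annotation was that of goldfish. STAR 2.7.3a, cutadapt 4.3, Subread 2.0, Picard 2.25.6, FastQC and MultiQC 1.10.1 also stand in the submitters' processing notes. Use of the identifiers against duplicates was not stated. The deposited table also gives gene length, per its header.

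All 62131 rows entered the library totals, and each carried a gene ID. The tests kept 39578 genes for triploid against diploid males and 42352 in the other comparisons. Tests ran in R 4.3.3 with edgeR 4.0.16 (quasi-likelihood test) and limma 3.58.1, with TMM factors, a minimum count of 10, robust estimation and Benjamini-Hochberg adjusted p over all genes tested, at 0.05. All triploid males were set against diploid males in a model of 2 groups, and the other 6 comparisons came from a model of 4 groups that shares its estimate of spread. Levels are CPM, and likeness was computed on log2 CPM (prior count 2) over genes with a mean of at least 1. Alternatives were other scaling, DESeq2 1.42.0, limma-voom, other sets of males, a replicate block and leaving out each male.

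The 5 genes, the lists and the tests were chosen with earlier results of these data known, and the ratios after their values were seen. Lists of nuclear genes and of cell type markers had 0 matched IDs and were not used. The genes named are the 5 members, other mitochondrial genes that a result turns on, and the 3 IDs most like the members' sum. P-values set a difference between groups against the spread between males, which may be related. The lowest chi-square per gene between libraries of a group was 4.23, so no library was counted as a repeat. On simulated data for triploid against diploid males (39578 genes) 23.9% of simulated 1.5-fold changes, 65.7% of 2-fold changes and 98.5% of 4-fold changes were called. With group 2 and group 3 (42352 genes) these were 14.9%, 35.8% and 78.8%. Of 200 genes changed among all genes tested, 67 had a 1.5-fold, 67 a 2-fold and 66 a 4-fold change. The percentages are shares of these, and not values for the 5 genes. They do not tell how often a change of that size in the 5 genes would be called. In triploid against diploid males the SE of the log2 difference ran from 0.115 (COX2) to 0.146 (ATP8) among the 5 genes.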

Additional observations from a re-analysis of the deposited data

Results flagged for a closer look

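In 80 sets of values of 5 to 10 males, 3 held a male far from the others of its group, and chance alone gives about 1 in 20. Diploid replicate 5 had 1710.2 normalised CPM of COX2, where the other diploid males had 902 to 1332. In group 3 replicate 6, ATP6 made up 6.60% of the counts of the 13 protein genes, where the other males of the group had 5.72% to 6.05%. In group 3 replicate 4, the ratio of COX3 to CYTB in counts per kb was 2.79, where the others had 2.54 to 2.63.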

How the results depend on the processing

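Library totals alone changed the number of the 5 genes called, to 2 in group 2 and 2 in group 3 against diploid males, 3 in group 1 against group 2 and 1 in group 1 against group 3. Leaving out a male gave 0 to 1 call in group 3 against diploid males (ATP8) and 0 in the other comparisons. No gene was called under the other alternatives. The values that changed sign were not called with TMM factors; the cause was not tested, except that library totals differ from TMM by the factors given. In what follows the log2 values are those under the alternative.

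With library totals, triploid against diploid males gave COX1 -0.10 and ATP6 -0.039. Group 1 gave COX1 0.029, and group 2 COX1 -0.21. Group 3 gave COX1 -0.11, COX2 -0.26 and ATP6 -0.12. Group 1 against group 2 gave COX1 0.24, COX2 0.26 and COX3 0.36, and group 1 against group 3 COX1 0.14, COX2 0.19, COX3 0.26, ATP6 0.38 and ATP8 0.26. With only diploid males of number 108, all triploid males gave COX2 0.062 and COX3 0.017, group 1 COX1 0.032, group 2 COX2 0.072 and group 3 COX3 0.11. With only those of number 14, all triploid males gave COX1 -0.10, group 2 COX1 -0.10 and group 3 COX2 -0.13. Without group 1 replicates 1 and 2, an alternative chosen after seeing the data, group 1 gave COX1 0.14 against diploid males, COX1 0.099, COX2 0.014 and COX3 0.14 against group 2, and COX3 0.011 and ATP6 0.037 against group 3.

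DESeq2 and RLE factors each gave COX3 0.010 in group 3 against diploid males. Limma-voom gave COX1 0.097 in group 1 and COX3 0.0063 in group 3 against diploid males, COX1 0.040 and COX3 0.10 in group 1 against group 2, and ATP6 0.017 in group 1 against group 3. Upper quartile factors gave COX1 0.013 in group 1 and COX2 -0.037 in group 3 against diploid males, COX3 0.11 in group 1 against group 2, and COX3 0.017, ATP6 0.13 and ATP8 0.0053 in group 1 against group 3. A fit of only the 2 groups gave COX2 -0.0026 in group 3 against diploid males. Replicate numbers were not taken to pair the males: the median correlation of 31 same-numbered pairs was -0.0064, and 8 of them had one over 0.1. Pairs of unlike number were not set beside them. A replicate block gave ATP6 0.026 in group 2 and COX2 -0.015 in group 3 against diploid males, and 0 genes called in all 7 comparisons.

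Leaving out each male in turn, the log2 value ran from -0.010 to 0.080 for COX1 in all triploid males. In group 1 against diploid males COX1 ran from -0.21 to 0.012. In group 2 it ran from -0.12 to 0.045 for ATP6, -0.17 to 0.038 for ATP8, -0.0088 to 0.071 for COX1 and -0.11 to 0.0051 for COX2. In group 3 it ran from -0.033 to 0.087 for COX2 and -0.064 to 0.029 for COX3, and in group 1 against group 2 from -0.14 to 0.043 for COX3. ATP8, with 40 to 131 counts per library, had the lowest depth of the 5. On library totals, 9 of the 20 group means of the 5 genes moved by more than 1 SD and 11 by less. With all mitochondrial rows as the denominator, 4 of the 20 mean shares moved by more than 1 SD and 16 by less.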
